A study of Mus musculus with 6 samples.

Results

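Smooth muscle and actomyosin contractile genes encode the machinery with which smooth muscle cells, pericytes and activated stromal cells contract, together with the actin-based adhesions through which that force reaches the matrix. A list of 36 such genes was followed in 6 mouse ovarian tumours, 3 primary and 3 metastatic, on arrays that measured 30142 genes. A member entered where a probe set carried exactly 1 gene symbol in the platform annotation, and 34 of the 36 did. Myh9, a non-muscle myosin heavy chain gene, and Pdlim7, a PDZ-LIM protein gene, were not measured by such a probe set. Each of the 34 measured members had 1 probe set.

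The tumours came from 3 mice, named C1M3, C1M5 and C2M3, in which ID8-VEGF cells had been injected under the bursa of the ovary. ID8 is a mouse line of ovarian surface epithelial origin. Its ID8-VEGF derivative produces vascular endothelial growth factor, so both groups carry that factor. Each mouse gave 1 late-stage primary tumour and 1 metastatic tumour, each hybridised to 1 array. The source name of the primary tumour of C2M3 reads C2M2, while its donor label reads C2M3, which was followed. Strain, age, treatment and the site of the metastasis are not given in the labels. Whole tumour RNA was measured, so fewer cells of a type and less RNA per cell cannot be told apart. All 8 markers of mesothelium and ovarian surface epithelium, the origin of ID8, lay above the median of 5222 negative control probe sets on every array. Of the 34 members, 27 did so, where 48.7% of all genes did. Against the higher bar of the 95th percentile of the controls, 9 members (26.5%) lay above it on every array, beside 11.2% of all genes. A further 18 members (52.9%) lay above it on no array, beside 80.3% of all genes. Among these 18 were Myh11, Actg2, Cnn1, Des, Synpo2, Srf and Pdlim3. Of the 8 mesothelial and ovarian surface markers, 5 lay above this 95th percentile on every array and 1 on no array.

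In smooth muscle, serum response factor binds DNA elements called CArG boxes and, with its coactivator myocardin, drives genes of the contractile apparatus. Calcium activates myosin light chain kinase, phosphorylated myosin pulls on actin filaments covered with tropomyosin, caldesmon and calponin, and alpha-actinin, filamin, vinculin and the LIM proteins tie those filaments to dense bodies and adhesion plaques. Some of these proteins, such as vinculin and alpha-actinin, are made by most cell types, while smooth muscle myosin heavy chain and calponin 1 are restricted largely to smooth muscle.

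Of the 9 genes of the smooth muscle contractile apparatus, 8 had their highest level in the primary tumour of C2M3. That primary tumour was the highest of the 6 arrays for 17 of the 34 members, where 10.4% of all genes were highest there. The primary tumour of C1M3 was the lowest for 17, where 16.4% of all genes were lowest there. Myl9, which encodes a regulatory light chain of myosin, had another order, with its highest level in the primary tumour of C1M3 and a lower level in the metastasis of all 3 mice. Pdlim1, a PDZ-LIM protein gene, was the 1 member with a higher level in the metastasis of all 3 mice. No member passed the test between metastatic and primary tumours.

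**Figure D1:**
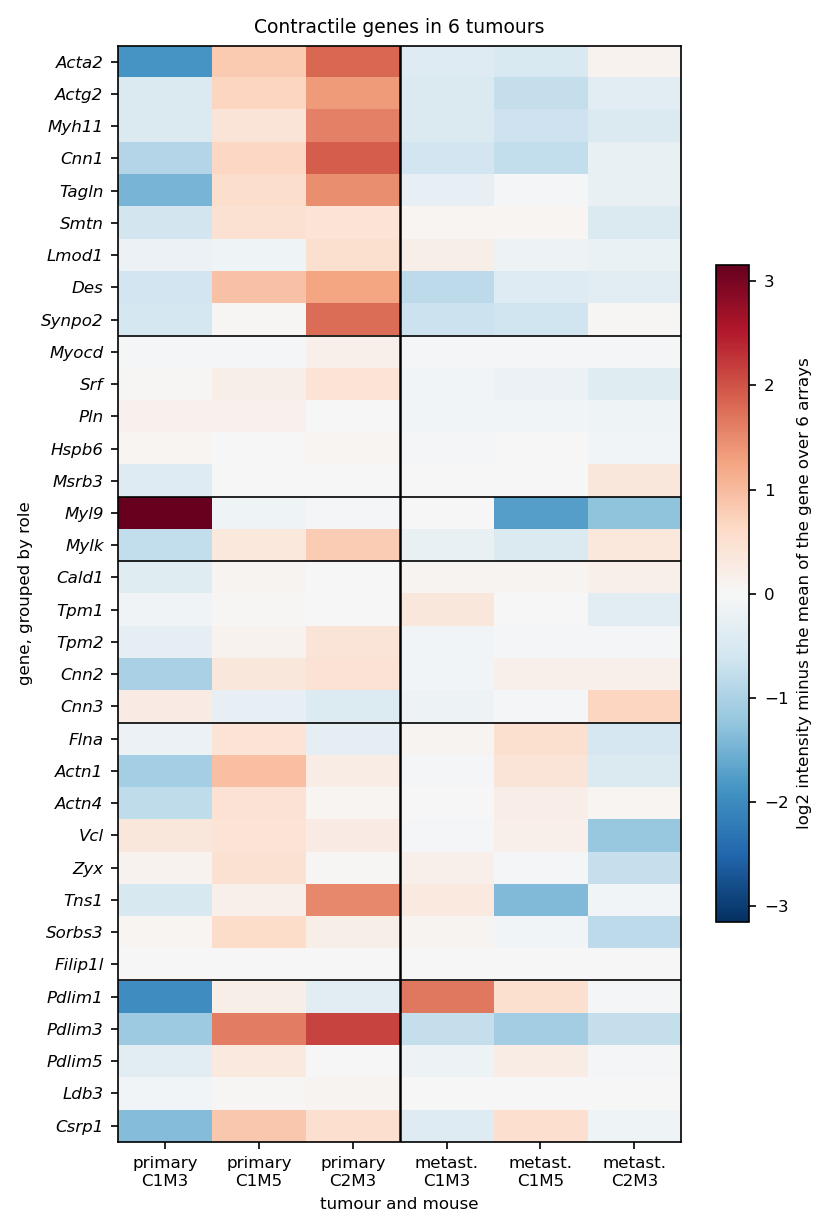
Heat map of the 34 measured members (vertical, grouped by role) on the 6 arrays (horizontal), coloured by the log2 intensity minus the mean of that gene over the 6 arrays. The smooth muscle genes stand highest in the primary tumour of C2M3, while Myl9 stands highest in that of C1M3.

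Metastases were compared with primary tumours by limma with the mouse as a block. None of the 30142 genes passed (limma adjusted p under 0.05, 0 genes, 0%), and the lowest limma adjusted p of any gene was 0.841. By the unadjusted limma p, 594 genes (1.97%) were below 0.05 with a lower and 891 (2.96%) with a higher level in metastases, in all 4.93%. Among the members, 2 of 34 (5.88%) were below 0.05, Myl9 and Pln, both lower, with Pln below the negative control median on every array. This count was 13 of 34 without C1M3, beside 14.8% of all genes, and 11 without its primary tumour alone, beside 9.11%. With array weights it was 11, beside 17.5%. These weights were 0.35 for both arrays of C1M3, 3.18 for those of C1M5 and 0.90 for those of C2M3. Without C1M5 the count was 1, beside 3.05% of all genes, and without C2M3 it was 0, beside 2.87%. A p that misses the threshold does not show that a gene did not differ. Differences below are log2 values, the metastasis minus the primary tumour, with the moderated standard error (SE).

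The mean difference was below 0 for 24 of the 34 members and for 43.9% of all genes, and above 0 for 10 members and 55% of all genes. The median difference was -0.17 for the members and 0.02 for all genes tested. With each array centred on its own median, all genes had a median of -0.09 and 69.6% lay below 0, beside a median of -0.28 and 28 of 34 for the members. By the unadjusted limma p, that centring gave 1159 lower and 429 higher genes. A mean difference of at least 2-fold downward was seen for Myl9, Pdlim3, Cnn1, Des, Actg2 and Myh11, or 6 of 34 members, and for 0.567% of all genes. Without C2M3 only Myl9 and Pdlim3 reached it, 2 members beside 0.295% of all genes, and without C1M5 3 did, beside 0.882%. Without C1M3 it was 10, beside 1.15%. Upward it was seen for Pdlim1, and for 1.61% of all genes. It was not seen without C1M3, without either tumour of C1M3 alone or with array weights.

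The mice differed in direction. Within C1M3, 8 members were lower and 23 higher in the metastasis, beside 54.3% and 35% of all genes. Within C1M5, 26 were lower and 3 higher, beside 36.2% and 50.1%. Within C2M3, 28 were lower and 4 higher, beside 31.3% and 58.4%. The median of the members was 0.25, -0.29 and -0.69 within C1M3, C1M5 and C2M3, against -0.023, 0.0003 and 0.053 for all genes. Without C1M3, 29 of 34 members had a negative mean difference, with a median of -0.54, and 36.2% of all genes did. Without C2M3, 16 of 34 members did (47.1%), with a median of 0.00, and 50.4% of all genes did. With 1 pair of tumours per mouse, the difference between mice was not tested.

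The metastasis of every mouse was lower for 6 members, Des, Synpo2, Srf, Pln, Myl9 and Vcl, or 17.6% of the 34, where 8.64% of all genes were. For 3 of them, Srf, Pln and Vcl (8.82%), all primary tumours lay above all metastases, where 2.84% of all genes did so. Pln counts here although it lay below the median of the negative controls on every array. In the metastasis of C1M3 that median was 4.90, and Synpo2 read 4.80, below it, and Des 4.98, just above it. Their differences within C1M3 were -0.10 for Synpo2 and -0.23 for Des. Only Pdlim1 was higher in all 3 mice, where 11.1% of all genes were. No member had all metastases above all primary tumours, where 4.79% of all genes did.

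**Figure D2:**
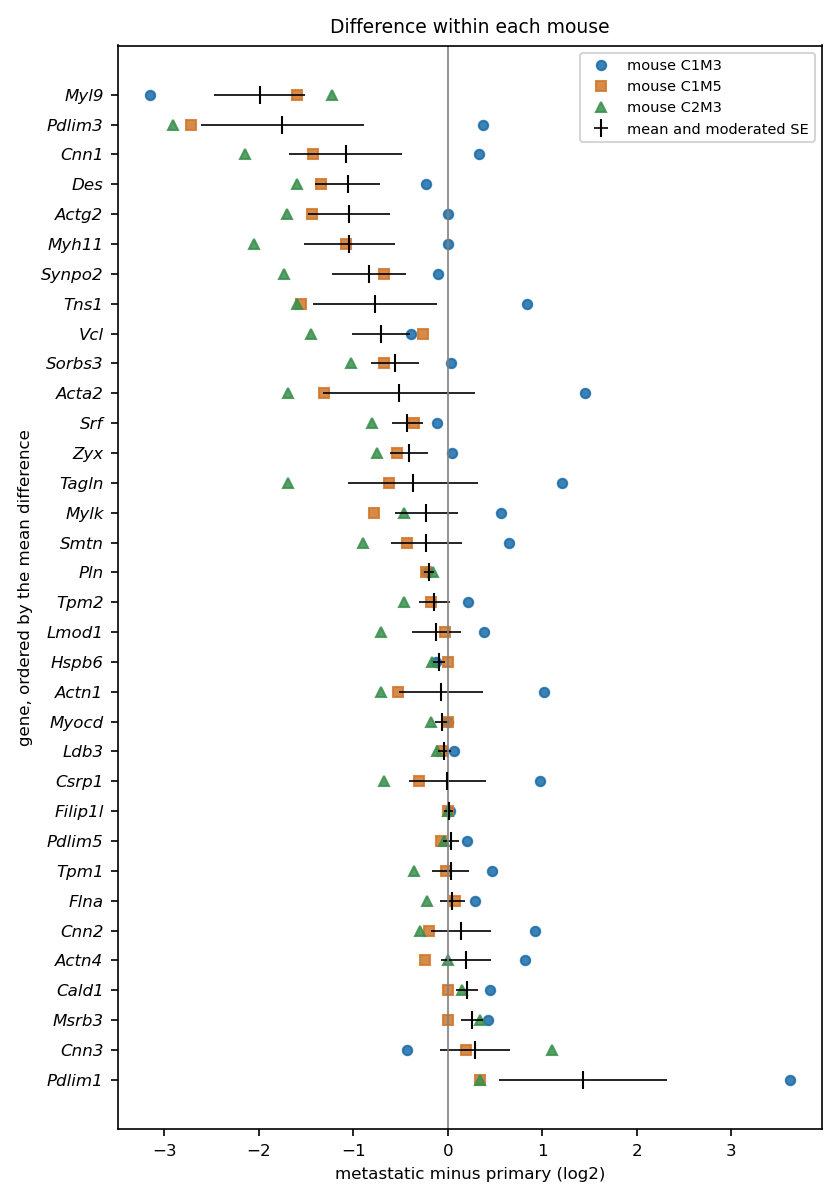
Difference within each mouse (coloured points, metastatic minus primary, log2) for the 34 members, ordered by their mean difference, which is drawn in black with its moderated SE. Most members have C1M3 at or above 0 and C2M3 below it, while Myl9 lies below 0 in all 3 mice, at -3.15, -1.59 and -1.23 in C1M3, C1M5 and C2M3.

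Serum response factor and its coactivator come first. Srf, the gene of serum response factor, read 6.90, 7.04 and 7.29 on the log2 scale in the primary tumours of C1M3, C1M5 and C2M3, an order of mice kept for all values below. In the metastases it read 6.78, 6.67 and 6.48. All primary tumours lay above all metastases, and the mean difference was -0.43 (SE 0.17, 95% interval -0.96 to 0.11, limma adjusted p = 0.841), with -0.12, -0.36 and -0.80 in the mice. Without C2M3 it was -0.24. Myocd, the gene of myocardin, read 4.20, 4.20 and 4.38 in primary tumours and 4.20, 4.20 and 4.20 in metastases, a difference of -0.061 (SE 0.069), all below the median of the negative controls. Myocd was therefore too dim for its difference to be read.

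The sequences before the transcription starts of 4 members are shown because the factor encoded by Srf binds CArG boxes, and 3 of the 4 genes, Srf, Vcl and Myl9, were lower in the metastasis of every mouse. RefSeq promoter sequences of the mouse build GRCm38.p6 were matched by symbol for 31 of the 36 listed genes, and the 250 bases before each start were searched on both strands for the CArG box. The table held none for Sorbs3, Myh11, Myocd, Tagln and Actg2. The box is 10 bases long, CC and GG around 6 letters that are each A or T, and reads as a box on both strands. It was found for 6 of the 31 genes (19.4%) and for 1.62% of the 27025 genes with such a sequence. A looser box, with exactly 1 of the 6 inner letters changed to C or G, was found for 4 of 31 (12.9%) and for 8.33% of all genes. A match describes these letters and is not shown to be a binding site. Each sequence runs 5′ to 3′ on the strand of the gene and ends at the base before the start, and capitals mark the boxes, strict or looser.
Srf, chr17:46556163-46556412, minus strand: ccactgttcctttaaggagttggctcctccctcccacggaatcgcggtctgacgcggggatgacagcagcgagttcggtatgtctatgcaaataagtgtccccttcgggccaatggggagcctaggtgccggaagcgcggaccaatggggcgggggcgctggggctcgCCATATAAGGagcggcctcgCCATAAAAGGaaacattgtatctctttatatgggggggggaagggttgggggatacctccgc
Vcl, chr14:20929148-20929397, plus strand: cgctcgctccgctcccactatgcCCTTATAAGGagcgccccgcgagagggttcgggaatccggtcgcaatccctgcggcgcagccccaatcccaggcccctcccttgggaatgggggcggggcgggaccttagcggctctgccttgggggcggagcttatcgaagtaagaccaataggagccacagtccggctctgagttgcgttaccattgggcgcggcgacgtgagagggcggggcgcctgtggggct
Myl9, chr2:156775214-156775463, plus strand: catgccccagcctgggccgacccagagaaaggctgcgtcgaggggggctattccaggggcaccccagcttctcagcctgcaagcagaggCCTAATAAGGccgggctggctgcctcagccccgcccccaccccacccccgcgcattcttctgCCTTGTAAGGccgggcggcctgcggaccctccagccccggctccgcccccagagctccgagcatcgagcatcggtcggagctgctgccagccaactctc
Acta2, chr19:34255374-34255623, minus strand: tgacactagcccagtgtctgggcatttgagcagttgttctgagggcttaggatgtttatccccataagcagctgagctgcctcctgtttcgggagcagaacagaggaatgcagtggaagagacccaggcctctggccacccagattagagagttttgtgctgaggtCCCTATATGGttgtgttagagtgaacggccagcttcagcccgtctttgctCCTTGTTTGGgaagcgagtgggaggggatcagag
Srf held a pair of strict boxes, CCATATAAGG from 82 to 73 bases and CCATAAAAGG from 62 to 53 bases before its start. Vcl held 1 strict box, CCTTATAAGG, from 227 to 218 bases before the start. Myl9 held 1 strict box, CCTAATAAGG, from 161 to 152 bases and 1 looser box, CCTTGTAAGG, from 99 to 90 bases before the start. Acta2 held no strict box in this window and a pair of looser ones, CCCTATATGG and CCTTGTTTGG. Of the 6 members with a strict box, Srf, Vcl and Myl9 were lower in all 3 mice while Cnn2, Ldb3 and Filip1l were not. Ldb3 and Filip1l lay below the median of the negative controls on all arrays, so their direction cannot be read. Des, Synpo2 and Pln, also lower in all 3 mice, held neither a strict nor a looser box in this window. A link between boxes and direction was not tested.

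Of 7 measured genes of SRF cofactors and competitors, 0 passed the test in either direction, and 5 had a negative mean difference. Klf4, a factor known to repress smooth muscle genes, read 8.78, 10.43 and 8.02 in primary tumours and 8.29, 9.98 and 7.45 in metastases. The level followed the mouse, highest in both tumours of C1M5, and the groups overlapped. Within each mouse the metastasis was lower, by a mean of -0.50 (SE 0.057, limma adjusted p = 0.841). Mrtfb, a coactivator gene of serum response factor, differed by -0.28 (SE 0.15), the ternary complex factor gene Elk4 by -0.28 (SE 0.13) and the LIM-only protein gene Fhl2 by 0.25 (SE 0.18).

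The smooth muscle contractile apparatus had a negative mean difference for all 9 of its members, with a median of -0.84, and none passed the test. The primary tumour of C2M3 was the highest array for 8 of the 9, Smtn being the exception. The mean over the 9 genes was 5.94, 7.22 and 8.07 in primary tumours and 6.35, 6.30 and 6.49 in metastases. The metastases thus lay in a narrow range, with the primary tumours of C1M5 and C2M3 above it and that of C1M3 below it. Within the mice the median difference was 0.33, -1.07 and -1.70.

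Acta2, the gene of smooth muscle alpha-actin, a marker of smooth muscle and activated fibroblasts, read 8.54, 11.23 and 12.21 in primary tumours and 9.99, 9.92 and 10.53 in metastases. The primary tumours held both the lowest and the highest array, and the groups overlapped. The mean was 10.66 ± 1.90 (SD, n = 3) in primary tumours and 10.14 ± 0.33 in metastases, a difference of -0.52 (SE 0.80, 95% interval -3.05 to 2.02, limma adjusted p = 0.878). Within the mice it was 1.45, -1.31 and -1.69. Without C1M3 the mean difference of Acta2 was -1.50, and without C2M3 it was 0.071.

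Tagln, the gene of transgelin, an actin-binding protein of smooth muscle, read 6.21, 8.23 and 9.12 in primary tumours and 7.42, 7.60 and 7.43 in metastases. As for Acta2, the metastases lay close together, above the primary tumour of C1M3 and below the other two. The mean difference of Tagln was -0.37 (SE 0.69, limma adjusted p = 0.900), with 1.21, -0.63 and -1.70 in the mice. Without C1M3 it was -1.16.

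Myh11, the gene of smooth muscle myosin heavy chain, read 5.65, 6.51 and 7.69 in primary tumours and 5.65, 5.44 and 5.65 in metastases. Only the primary tumours of C1M5 and C2M3 stood above the rest. Actg2, the gene of the smooth muscle gamma-actin of gut and other viscera, read 6.27, 7.41 and 8.09 in primary tumours and 6.27, 5.98 and 6.38 in metastases, in the same order of primary tumours. Actin genes are alike in sequence, so signal shared between Actg2, Acta2 and other actins cannot be told apart. Myh11 differed by -1.04 (SE 0.48) and Actg2 by -1.05 (SE 0.43), each with a limma adjusted p of 0.841. Without C1M3 these differences were -1.56 and -1.57, and without C2M3 -0.54 and -0.72.

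Cnn1, the gene of calponin 1, read 4.76, 6.34 and 7.59 in primary tumours and 5.09, 4.91 and 5.45 in metastases, and its mean difference was -1.08 (SE 0.60). The order of the primary tumours was that of Acta2, and without C1M3 the difference was -1.79, without C2M3 -0.55. Des, the gene of the muscle intermediate filament protein desmin, read 5.21, 6.73 and 7.06 in primary tumours and 4.98, 5.38 and 5.46 in metastases. Des was lower in the metastasis of each mouse, by a mean of -1.06 (SE 0.34, 95% interval -2.15 to 0.027, limma adjusted p = 0.841). Its groups overlapped because the primary tumour of C1M3 lay below the metastases of the other mice.

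Synpo2, the gene of an actin-bundling protein of Z-discs and dense bodies, read 4.91, 5.52 and 7.25 in primary tumours and 4.80, 4.85 and 5.52 in metastases, a difference of -0.84 (SE 0.39). The widest gap was in C2M3, at -1.73, and without C2M3 the mean difference was -0.39. Smtn, the gene of smoothelin of contractile smooth muscle, read 7.46, 8.53 and 8.47 in primary tumours and 8.11, 8.11 and 7.57 in metastases, a difference of -0.23 (SE 0.38). Lmod1, the gene of an actin filament nucleator, read 4.46, 4.52 and 5.15 in primary tumours and 4.84, 4.49 and 4.44 in metastases, a difference of -0.12 (SE 0.26). Lmod1 exceeded the median of the negative controls on 1 of the 6 arrays, so most of its values are at background.

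**Figure D3:**
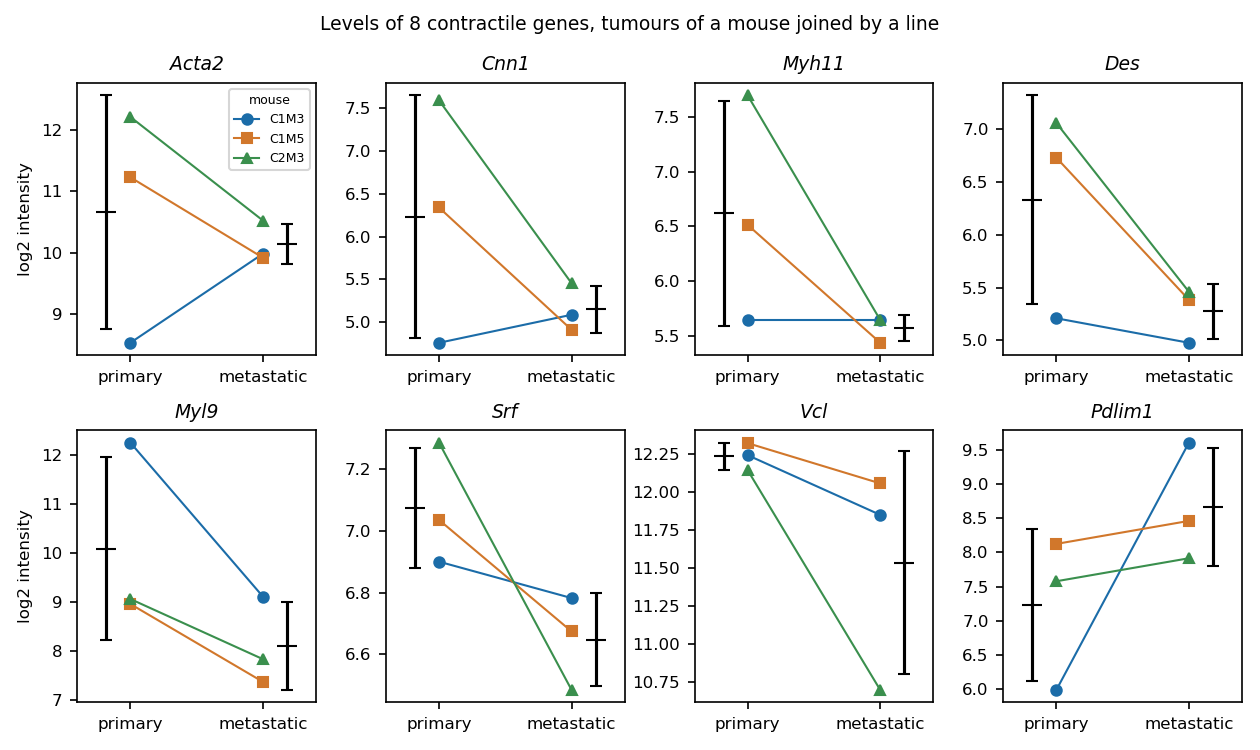
Log2 intensity of 8 members in primary and metastatic tumours, with the tumours of a mouse joined by a line and the mean and SD of each group (n = 3) in black. In Acta2 and Cnn1 the primary tumours of C1M5 and C2M3 stand above the metastases and that of C1M3 does not, while Myl9, Srf and Vcl are lower in the metastasis of all 3 mice and Pdlim1 is higher.

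Among the genes that tune contraction, Pln, the gene of phospholamban, an inhibitor of the calcium pump, read 3.66, 3.67 and 3.55 in primary tumours and 3.44, 3.44 and 3.39 in metastases. The groups of Pln did not overlap, and the mean difference was -0.20 (SE 0.052, limma unadjusted p = 0.0312, adjusted p = 0.841). All 6 values of Pln lay below the median of the negative controls, which was 4.63 to 4.90 on the arrays. Like Myocd, Pln was therefore too dim for its difference to be read. Hspb6, a small heat shock protein gene of smooth muscle relaxation, read 5.26, 5.22 and 5.28 in primary tumours and 5.13, 5.22 and 5.11 in metastases, a difference of -0.098 (SE 0.064). Msrb3, a methionine sulfoxide reductase gene, read 6.46, 6.89 and 6.89 in primary tumours and 6.89, 6.89 and 7.23 in metastases, a difference of 0.26 (SE 0.12). Each of these 3 genes spanned less than 1 log2 unit over the arrays.

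Myosin gave an order of its own. Myl9 read 12.25, 8.95 and 9.05 in primary tumours and 9.10, 7.36 and 7.82 in metastases. Each tumour of C1M3 lay above the like tumour of the other mice, and the groups overlapped because the metastasis of C1M3 lay just above the primary tumours of C1M5 and C2M3. The mean was 10.09 ± 1.88 (SD, n = 3) in primary tumours and 8.10 ± 0.90 in metastases, a difference of -1.99 (SE 0.48, 95% interval -3.51 to -0.48, limma unadjusted p = 0.0247, adjusted p = 0.841). On the linear scale this was 3.97-fold. Of the 34 members Myl9 had the widest mean difference, and without C1M3 it was -1.41. Without the primary tumour of C1M3 alone, and without the mouse block, it was -0.91, which is under 2-fold.

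Mylk, the gene of the kinase that phosphorylates this light chain, read 5.56, 6.68 and 7.15 in primary tumours and 6.13, 5.90 and 6.69 in metastases. Unlike Myl9, it was lowest in the primary tumour of C1M3, and its mean difference was -0.23 (SE 0.33, limma adjusted p = 0.871).

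Of the 5 thin filament regulators, 1 had a negative mean difference, the tropomyosin gene Tpm2 at -0.14 (SE 0.17), and 4 a positive one. Cnn3, a calponin gene of non-muscle cells, read 13.90, 13.37 and 13.20 in primary tumours and 13.47, 13.56 and 14.31 in metastases. The primary tumour of C2M3 was lowest for Cnn3 and highest for Cnn1. The mean difference of Cnn3 was 0.29 (SE 0.37), and within the mice it was -0.44, 0.19 and 1.11, against 0.33, -1.43 and -2.14 for Cnn1. These calponin genes thus had opposite signs in each mouse, a contrast noticed after the values were seen and not tested. The other calponin gene, Cnn2, differed by 0.14 (SE 0.32), a sign that array weights turned.

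Cald1, the gene of caldesmon, read 9.76, 10.21 and 10.13 in primary tumours and 10.21, 10.21 and 10.28 in metastases, a difference of 0.20 (SE 0.12), with the primary tumour of C1M3 lowest. Tpm1, another tropomyosin gene, differed by 0.03 (SE 0.20), and centring the arrays turned its sign. Muscle and non-muscle isoforms of caldesmon and tropomyosin cannot be told apart from 1 probe set per gene.

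Among the crosslinkers and adhesion plaque proteins, 5 of 8 members had a negative mean difference, with a median of -0.24, and none passed the test. Vcl, the gene of vinculin, which links actin to integrin and cadherin adhesions, read 12.24, 12.32 and 12.15 in primary tumours and 11.85, 12.06 and 10.69 in metastases. All primary tumours lay above all metastases, with the metastasis of C2M3 farthest below. The mean difference was -0.70 (SE 0.31, limma adjusted p = 0.841), and without C2M3 it was -0.33.

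Tns1, the gene of tensin 1 of fibrillar adhesions, read 9.22, 9.89 and 11.26 in primary tumours and 10.06, 8.34 and 9.67 in metastases, a difference of -0.77 (SE 0.65). Its groups overlapped, and within C1M3 it was higher in the metastasis by 0.84. Actn4, a non-muscle alpha-actinin gene, read 12.43, 13.70 and 13.29 in primary tumours and 13.25, 13.45 and 13.29 in metastases, a difference of 0.19 (SE 0.27). The primary tumour of C1M3 was the lowest array, and array weights turned the sign.

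The vinexin gene Sorbs3 differed by -0.56 (SE 0.26), the zyxin gene Zyx by -0.41 (SE 0.20), the alpha-actinin gene Actn1 by -0.069 (SE 0.45) and the filamin gene Flna by 0.049 (SE 0.13), whose sign turned with centring. Sorbs3 differed by 0.029, -0.67 and -1.03 within the mice and Zyx by 0.047, -0.54 and -0.75, so both were close to equal in C1M3 and lower in the other metastases. Actn1 had the signs of Acta2 in each mouse, at 1.02, -0.53 and -0.70. Filip1l, a filamin-interacting protein gene, spanned 4.45 to 4.48, below the median of the negative controls on all arrays, and differed by 0.0091 (SE 0.049), with a sign that turned with centring.

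Among the PDZ-LIM and LIM proteins, which bind alpha-actinin and the actin filament, 3 of 5 measured members had a negative mean difference, and the primary tumour of C1M3 was the lowest array for all 5. Pdlim3, the gene of the muscle protein ALP, read 4.27, 7.03 and 7.55 in primary tumours and 4.64, 4.31 and 4.64 in metastases. Only the primary tumours of C1M5 and C2M3 lay above the median of the negative controls, so its difference is taken against values at background. The mean difference was -1.75 (SE 0.86, limma adjusted p = 0.841), without C1M3 -2.81 and without C2M3 -1.17.

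Pdlim1 differed in the other direction, with 5.99, 8.12 and 7.58 in primary tumours and 9.61, 8.46 and 7.91 in metastases. The tumours of C1M3 were the lowest and the highest of the 6. The mean difference was 1.43 (SE 0.89, limma adjusted p = 0.841), and without C1M3 it was 0.34. Csrp1, a cysteine-rich LIM protein gene of smooth muscle, read 8.13, 10.35 and 10.04 in primary tumours and 9.11, 10.05 and 9.36 in metastases, a difference of -0.0036 (SE 0.41), with 0.97, -0.31 and -0.68 in the mice. The PDZ-LIM gene Pdlim5 differed by 0.03 (SE 0.084), with a sign that centring and array weights turned. Ldb3, the gene of a Z-disc protein of striated muscle, differed by -0.036 (SE 0.066) with all values below the median of the negative controls.

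The same machinery outside the list gave 0 passing genes as well. Of 17 measured genes for cytoplasmic actin, light chains and adhesion proteins, 6 had a negative and 11 a positive mean difference, and the median was 0.09. Pxn, the gene of the adhesion protein paxillin, was lower in all 3 metastases without overlap, with a difference of -0.37 (SE 0.14). Named after the values were seen, the non-muscle myosin heavy chain gene Myh10 was higher in all 3 without overlap, with 0.31 (SE 0.16), and the tropomyosin gene Tpm4 was higher in all 3 with overlap, with 0.09 (SE 0.051). The LIM protein genes Pdlim4, Csrp2 and Lima1 differed by 0.52 (SE 0.27), 0.41 (SE 0.46) and 0.31 (SE 0.23).

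Of 15 measured genes for channels, receptors and caveolae of smooth muscle, 11 had a negative mean difference, the median was -0.031, and the primary tumour of C2M3 was the highest array for 9. Cav1, the gene of caveolin 1 in the membrane pits of smooth muscle, fat and endothelial cells, read 6.82, 8.99 and 11.00 in primary tumours and 8.16, 8.19 and 8.42 in metastases, a difference of -0.67 (SE 0.92). The primary tumours had the order seen for Acta2. Kcnmb1, the smooth muscle subunit gene of a calcium-activated potassium channel, differed by -0.54 (SE 0.40), the pore gene Kcnma1 by -0.35 (SE 0.57) and the caveolar coat gene Cavin1 by -0.24 (SE 0.34).

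Markers of other cell types were also high in the primary tumour of C2M3 or low in that of C1M3. All 7 measured adipocyte markers were highest in the former, with list means from 5.74 to 11.44 in primary tumours and from 5.47 to 5.94 in metastases. Of 8 pericyte markers, 7 were highest in the primary tumour of C2M3 and 7 lowest in that of C1M3, with list means from 5.97 to 7.79 and from 6.57 to 7.25. All 7 measured fibroblast markers were lowest in the primary tumour of C1M3, with list means from 6.82 to 10.73 and from 8.25 to 9.64. Of 8 endothelial markers, 6 were highest in the primary tumour of C2M3, with list means from 6.21 to 8.32 and from 5.94 to 7.34. The metastasis of C1M5 was the lowest array for 6 of these 8, and the primary tumour of C1M3 for 2. The 5 macrophage markers were all lowest in the primary tumour of C1M3, with list means from 6.49 to 9.15 and from 8.26 to 9.31. The part of these cell types in the levels of the contractile genes was not tested.

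Within the mice, the median difference was 0.33, -1.07 and -1.70 for the contractile apparatus. For the pericyte list it was 1.03, -0.31 and -0.53, for the fibroblast list 2.10, -0.77 and -0.70 and for the endothelial list 1.43, -1.02 and -1.51. The adipocyte list had 0.15, -3.65 and -6.86. The signs of these medians were thus the same in each mouse for these 5 lists, which were measured on the same 6 arrays. The fibroblast list was split within C2M3, with 4 markers lower and 3 higher in the metastasis. Col1a1 and Col1a2 were among the higher ones there, at 0.67 and 0.31. The medians did not have these signs for the macrophage list, at 1.63, 0 and 0.40, the mesothelial list, at -0.61, 0.26 and -0.16, or the ovarian steroid cell list, at -0.07, -0.43 and -0.21. Among fibroblast markers, Dpt, the gene of the matrix protein dermatopontin, differed by 2.53, -3.23 and -5.72, and among pericyte markers, the growth factor receptor gene Pdgfrb by 3.20, -1.23 and -1.15.

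Markers of striated muscle differed in level from gene to gene. The 10 skeletal muscle markers had list means from 4.57 to 4.58 in primary tumours and from 4.56 to 4.59 in metastases, and 6 of the 10 lay above the median of the negative controls on no array. Actn3, an alpha-actinin gene of fast muscle, lay above it on all 6 arrays, at 5.99 to 6.71. The 4 measured heart muscle markers had list means from 4.80 to 5.32 and from 4.92 to 5.51. Among them the troponin gene Tnnt2 lay above the median of the controls on all arrays, at 7.06 to 7.15, and the atrial light chain gene Myl7 on 4, at 4.43 to 7.12, while Myh6 and Nppa lay above it on none. These genes were named after their values were seen. The 7 measured markers of ovarian steroid cells had list means from 6.34 to 7.11 and from 5.66 to 6.78. The 8 mesothelial and ovarian surface markers had list means from 11.05 to 12.25 and from 10.72 to 12.36. The primary tumour of C2M3 was the highest array for 0 of them, beside 10.4% of all genes.

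**Figure D4:**
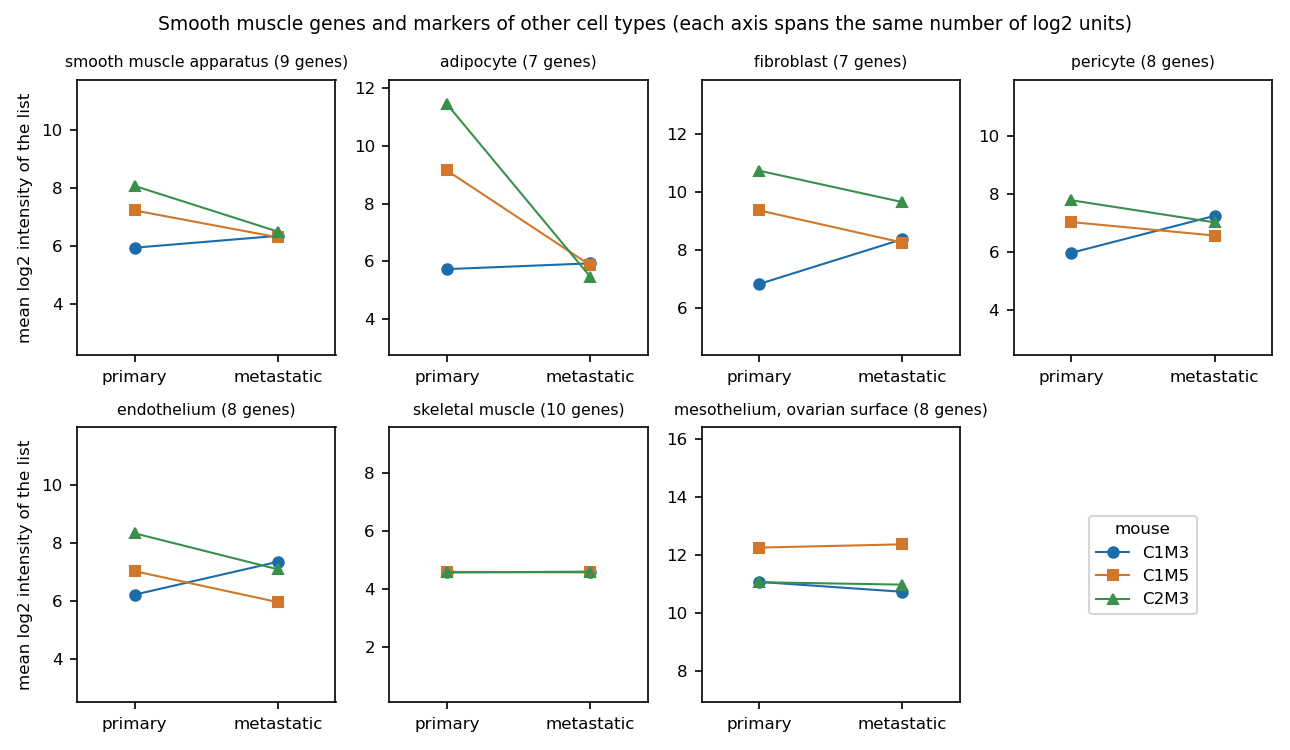
Mean log2 intensity of the 9 genes of the smooth muscle contractile apparatus and of marker lists in primary and metastatic tumours, with the tumours of a mouse joined by a line and every axis spanning the same number of log2 units. The adipocyte, fibroblast, pericyte and endothelial lists order the primary tumours as the contractile apparatus does, from C1M3 to C1M5 to C2M3, and the skeletal muscle list is flat.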

How the data were processed

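RNA from 6 tumours was measured on Affymetrix arrays. The authors deposited log2 values per probe set, and RMA and Transcriptome Analysis Console are named, without versions or roles, per the submitters' processing notes. The genome build is not given in the sources used here. Of 65956 probe sets other than controls, 30604 carried 1 distinct gene symbol in the platform annotation, and the probe set with the highest mean was kept per gene, giving 30142 genes. Dim genes stayed in. Identical values on several arrays were common, and 14 of the 34 members (41.2%) had fewer than 6 distinct values, beside 51.4% of all genes.

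Groups came from the tissue label and pairs from the donor label. The comparison used limma 3.58.1 in R 4.3.3 with tissue and mouse as terms, both sides tested, and Benjamini-Hochberg adjustment over all genes. After group means were subtracted, the paired arrays correlated across genes at r = -0.05 for C1M3, 0.35 for C1M5 and 0.07 for C2M3. The primary tumour of C1M3 correlated more with the metastasis of C2M3, at 0.13, than with its own. That of C2M3 correlated slightly more with the metastasis of C1M3, at 0.09. The pairing thus rests on the shared animal named in the donor label. The fit was tested on simulated data. Array medians lay between 4.90 and 5.15. The number of arrays limits the precision.

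The members, the lists of other genes and the comparison were chosen with earlier results of these data known. Every member is named. Values on each array are printed for the contractile apparatus, the transcription and relaxation genes and, in each other role, for the 2 members with the widest difference and the one with the highest mean. In other lists, at most 4 genes with the widest difference are named, and 1 list is not reported here. Alternatives were no mouse block, the mean over probe sets, array centring, a filter on dim genes, array weights, another variance prior, and leaving out mice or arrays.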

Additional observations from a re-analysis of the deposited data

How the results depend on the processing

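Under each of 15 alternatives, 0 of the genes tested had a limma adjusted p under 0.05, and the lowest adjusted p of any member was 0.278. The sign of the mean difference turned under no alternative for 18 of the 34 members. Without the mouse block (no replicate block), 24 members were again below 0 with a median of -0.17, and that fit changed no call. Centring each array turned the sign of Filip1l (-0.097), Flna (-0.057), Pdlim5 (-0.076) and Tpm1 (-0.076), and array weights that of Actn4 (-0.11), Cnn2 (-0.13), Pdlim5 (-0.041) and Tpm1 (-0.048). Leaving out mice, or single arrays without the block, gave between 16 and 29 members below 0, a median between -0.54 and 0.00, and 0 genes called throughout. It turned the sign of 15 members, whose differences ranged as follows: Acta2 -1.58 to 0.26, Actn1 -0.62 to 0.38, Actn4 -0.16 to 0.47, Cnn2 -0.33 to 0.40, Cnn3 -0.12 to 0.65, Csrp1 -0.69 to 0.42, Flna -0.20 to 0.33, Ldb3 -0.088 to 0.004, Lmod1 -0.37 to 0.17, Mylk -0.68 to 0.12, Pdlim5 -0.14 to 0.19, Smtn -0.66 to 0.11, Tagln -1.19 to 0.29, Tpm1 -0.19 to 0.22, Tpm2 -0.33 to 0.019. Myocd reached exactly 0. The lowest count came without C2M3 or its primary tumour, and the highest without C1M3 or its primary tumour. The cause was not tested.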
